A study of Mus musculus with 8 samples.

Results

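The nuclear-encoded subunits of the respiratory chain and of ATP synthase were examined in liver of mice lacking Rap1 and of wild-type mice. A list of 59 genes was used, with 27 subunits of complex I, 4 of complex II, 7 of complex III, 9 of complex IV and 11 of complex V (ATP synthase), and Cycs, which encodes cytochrome c. Every probe whose RefSeq accession carries a listed symbol or its newer name was taken, which gave 80 probes for 58 of the 59 genes. All 80 probes were well above background on enough arrays to be tested, and each gene was read by its brightest probe. No probe was named for Atp5g1, a gene of the membrane ring of ATP synthase, so 58 of the 14066 genes tested were members of the list.

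Liver RNA of 8 mice was hybridized in a single colour, 1 mouse per array, with 4 mice per genotype. The knockout group was labelled Rap1 -/- and lacks the gene Terf2ip, which encodes the telomere-binding protein RAP1. Mice of both groups were 10 weeks old, on a C57BL6/129SV background (90% and 10%). The study describes the deletion as present in the whole body, made by crossing floxed mice with an EIIa-cre line whose transgene was later bred out, and describes its young mice as females, whereas the labels give neither sex nor feeding state. The arrays can show differences in RNA per amount of liver RNA, and fewer cells of a type and less RNA per cell cannot be told apart in whole liver.

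Complex I oxidizes NADH and complex II oxidizes succinate, and both pass electrons to ubiquinone. Complex III moves them on to cytochrome c and complex IV passes them to oxygen, while complexes I, III and IV pump protons whose return flow drives ATP synthase. All complexes but complex II mix subunits encoded in the nucleus with subunits encoded in mitochondrial DNA, and in liver they serve, among other things, the oxidation of fatty acids. Many of the nuclear genes are known targets of the transcription factors NRF1 and GABP and of the coactivator PGC-1α, encoded by Ppargc1a.

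To show what the start sites of these genes share, promoters of 300 bases (250 before to 50 after the start) were searched on both strands in the RefSeq table of build GRCm38.p6, which held 52 promoters of 47 tested members among 32851 promoters. Ndufa2, Ndufb9, Ndufs1, Sdhc, Uqcrc2, Uqcrb, Uqcrq, Cyc1, Cox4i1, Cox6c and Atp5a1 had no entry. The NRF1 motif GCGCANGCG was found in 16 of the 52 member promoters (30.8%) and in 6.25% of all promoters. The sequences below run 5′ to 3′ on the strand of the gene, with the NRF1 motif in capitals, and lie upstream of the start. They are shown for the member of each complex with the smallest p value among those that carry the motif there, and no complex III member with an entry carried it upstream.
Ndufb4 (chr16:37654526-37654584, strand -): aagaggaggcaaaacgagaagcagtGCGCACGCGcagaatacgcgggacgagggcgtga
Sdha (chr13:74350305-74350363, strand -): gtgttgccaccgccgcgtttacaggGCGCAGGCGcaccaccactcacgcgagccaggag
Cox6a1 (chr5:115349087-115349145, strand -): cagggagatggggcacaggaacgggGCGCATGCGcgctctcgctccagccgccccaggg
Atp5c1 (chr2:10080433-10080474, strand -): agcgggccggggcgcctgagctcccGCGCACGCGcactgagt
The motif ended 182 bases before the start in Ndufb4, 89 in Sdha, 153 in Cox6a1 and 8 in Atp5c1, where the printed stretch stops at the start. The GABP motif CCGGAAG was in 25% of member promoters and in 8.86% of all, and the YY1 motif AAGATGGCG was in 9.62% and 1.4%. The ERR motif TCAAGGTCA was in only 1 of the 52 member promoters, that of Sdhd (1.92%), and in 0.423% of all. The CCAAT box was in 38.5% and 37.4%, and the TATA box (TATAAA) was in 11.5% and 13.6%. The telomeric hexamer TTAGGG, the repeat that the telomere complex holding RAP1 covers, was in 11.5% of member promoters and in 10.6% of all. The longer form TTAGGGTTA, which contains the hexamer, was in 0 of 52 member promoters and in 0.262% of all. The median log2 difference between genotypes was 0.13 over the 15 members with the NRF1 motif and 0.15 over the 32 without it, and it was 0.14 both over the 6 members with TTAGGG and over the 41 without.

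The targeted gene and the arrays were checked first. Terf2ip was read by 2 probes, given here as the log2 signal minus the array's 75th percentile, the scale of all levels below. In wild-type liver, probe A_52_P381806 read 0.14 ± 0.09 (SD, n = 4). It was not well above background on any Rap1 -/- array, where its signal was at least 18.96-fold lower (limma over probes, adjusted p = 7.09e-06). Probe A_55_P2094079 was 2.30-fold higher in Rap1 -/- liver (limma, adjusted p = 0.127), and the sources used here do not say which of the probes lies in the deleted part. The 75th percentile of the signal was between 178.9 and 209.3 on wild-type arrays and between 219.8 and 226.9 on Rap1 -/- arrays, and correlations between arrays ran from 0.984 to 0.993. All 10 hepatocyte markers were well above background. The arrays came from 2 slides, each with both genotypes, but with wild-type mice in positions 1 and 2 and Rap1 -/- mice in positions 3 and 4, so position and genotype cannot be told apart.

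No member of the list passed the test at an adjusted p under 0.05 (0 of 58, limma with Benjamini-Hochberg adjustment over all genes), where 2 of 14066 genes did (0.0142%). Those 2 genes, Chst4 and Zfhx3, are not on the list and are named here after their values were seen. The lowest adjusted p of a member was 0.770. Differences are Rap1 -/- minus wild type on the log2 scale, with limma's standard error (SE). The median difference over the members was 0.14 (1.10-fold), against 0.02 over all genes tested and 0.06 over the 2524 genes with a mean signal at or above that of the dimmest member. Of the members, 57 of 58 (98.3%) lay above 0, where 56.1% of all genes and 66.4% of those 2524 genes did, and the count was 48 under normexp (53.1% of all genes), 47 under quantile normalization (54.5%), 48 in the authors' table (54.1%) and 58 when arrays were scaled by their median (84.3%). At an unadjusted p under 0.05, 4 members were higher (6.9%, against 4.01% of all genes) and 0 were lower (against 2.35%). The 4 Rap1 -/- mice lay above the 4 wild-type mice for 2 members (3.45%, against 3.01% of all genes and 5.43% of the 2524), and below them for 0 (against 1.3%). The members were all read from the same 8 mice and share what sets a mouse apart, so the counts are not counts of independent observations.

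**Figure D1:**
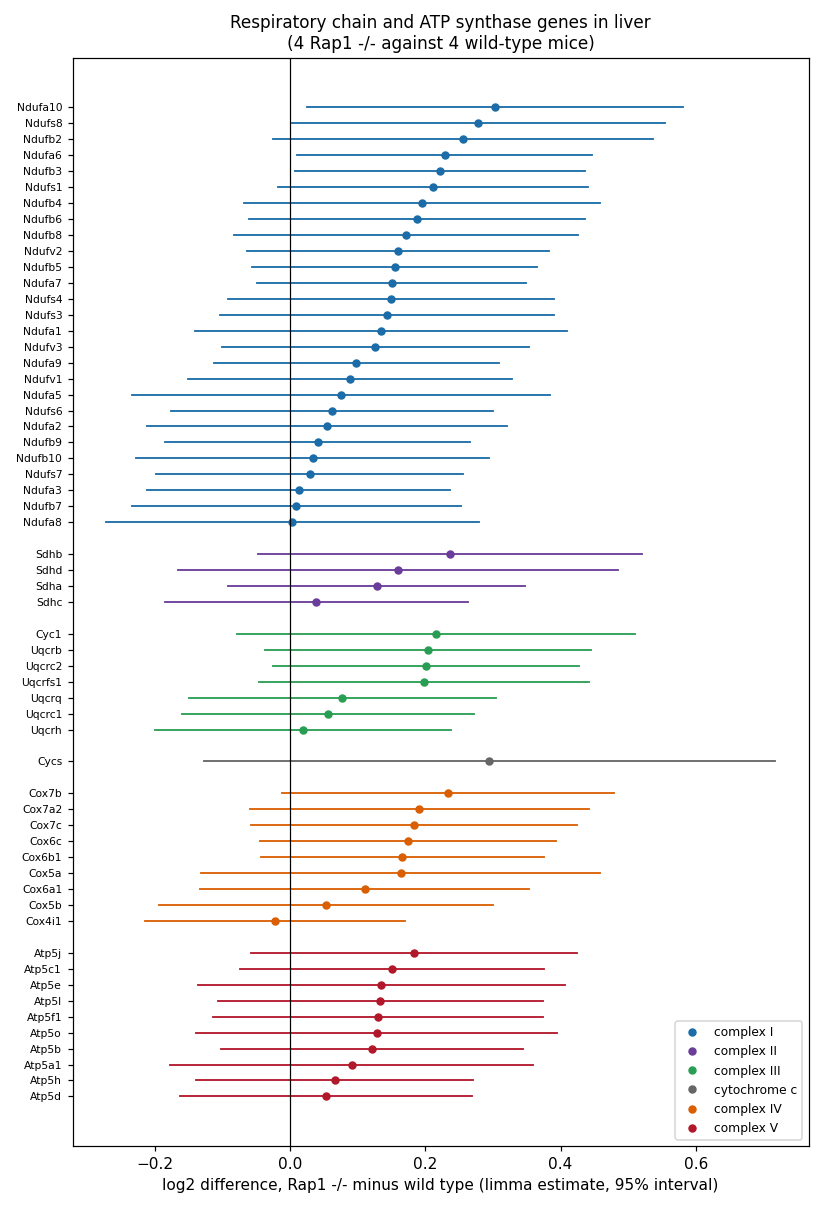
Log2 difference between 4 Rap1 -/- and 4 wild-type livers for each of the 58 tested members, grouped by complex, with points for limma's estimate and lines for its unadjusted 95% interval. The estimates run from -0.02 (Cox4i1) to 0.30 (Ndufa10), 57 of 58 lie above 0 (47 to 58 under other scalings), and 4 intervals, all in complex I, lie wholly above 0.

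The intervals of the single subunits, given for the processing used here, included 0 for all but 4 members. Over the 58 members, the 95% intervals of the difference ran from 0.828-fold at the lower end (Ndufa8) to 1.64-fold at the upper end (Cycs), without adjustment for the number of genes. The SE ran from 0.08 for Cox4i1 to 0.19 for Cycs. Its median was 0.11 over the members and 0.15 over all genes tested. Both estimate and SE moved with the scaling. For Ndufa10, the difference was 0.30 (SE 0.12) here, 0.46 (SE 0.19) with the array median and 0.25 (SE 0.11) under quantile normalization.

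Complex I, the NADH dehydrogenase and the entry point for most electrons, held the members with the smallest p values. Its 27 tested subunits had a median difference of 0.14, ranged from 0.00337 (Ndufa8) to 0.30 (Ndufa10), and were all above 0. Without wild-type replicate 1 the median was 0.08, and within slide 2 it was 0.09. The 6 core subunits on the list, which carry or help to hold the electron-transferring centres, had a median of 0.15, and the 21 accessory subunits had one of 0.13.

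Ndufa6 encodes an accessory subunit that binds an acyl carrier protein. Its level was 5.89, 5.92, 6.14 and 6.09 in wild-type replicates 1 to 4 and 6.31, 6.18, 6.25 and 6.22 in Rap1 -/- replicates 1 to 4. Every Rap1 -/- mouse lay above every wild-type mouse, by a narrow margin between the nearest mice. The difference was 0.23 (SE 0.10, n = 4 per genotype), with a limma adjusted p of 0.770.

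Ndufb3, an accessory subunit of the membrane arm, was the other member whose groups did not overlap. It was at 5.30, 5.55, 5.53 and 5.44 in wild-type mice and at 5.77, 5.62, 5.65 and 5.67 in Rap1 -/- mice. The difference was 0.22 (SE 0.09, n = 4 per genotype), with a limma adjusted p of 0.779. Wild-type replicate 1 was the lowest of the 8 mice for both Ndufb3 and Ndufa6.

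Ndufa10, an accessory subunit, had the largest difference of any member, 0.30 (SE 0.12, n = 4 per genotype, limma adjusted p = 0.770). It was at 3.25, 3.42, 3.66 and 3.61 in wild-type mice and at 3.65, 3.93, 3.71 and 3.87 in Rap1 -/- mice. The groups overlapped only through Rap1 -/- replicate 1, which lay just below wild-type replicate 3. The fourth subunit with an unadjusted p under 0.05 was Ndufs8, a core subunit that holds iron-sulfur clusters, with a difference of 0.28 (SE 0.12).

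The other core subunits were Ndufs1, which holds iron-sulfur clusters and differed by 0.21 (SE 0.10), Ndufv2 at 0.16, Ndufs3 at 0.14, Ndufv1, which binds NADH, at 0.09, and Ndufs7, next to the ubiquinone site, at 0.03. Of the other accessory subunits, Ndufb2 (0.26), Ndufb4, Ndufb6, Ndufb8, Ndufb5, Ndufa7, Ndufs4, Ndufa1 and Ndufv3 (0.13) were at 0.13 or above. Ndufa9, Ndufa5, Ndufs6, Ndufa2, Ndufb9, Ndufb10, Ndufa3, Ndufb7 and Ndufa8 were between 0.00337 and 0.10. None of these intervals left out 0.

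Complex II is succinate dehydrogenase, which also works in the citric acid cycle. Its 4 subunits had a median difference of 0.14 and were all above 0, with none at an unadjusted p under 0.05. The median was 0.05 without wild-type replicate 1. Sdhb, the iron-sulfur subunit, was at 7.15, 7.44, 7.504 and 7.13 in wild-type mice and at 7.68, 7.40, 7.45 and 7.64 in Rap1 -/- mice. Rap1 -/- replicates 1 and 4 lay above all wild-type mice, and replicates 2 and 3 lay within the wild-type range, so that the difference was 0.24 (SE 0.13, limma adjusted p = 0.796).

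Sdha, the flavoprotein that holds the succinate site and whose NRF1 motif is printed above, was at 5.26, 5.52, 5.46 and 5.52 in wild-type mice. It was at 5.51, 5.57, 5.53 and 5.66 in Rap1 -/- mice. Wild-type replicate 1 stood below the other 7 mice, which overlapped, and the difference was 0.13 (SE 0.10, limma adjusted p = 0.852). The membrane anchors Sdhd and Sdhc differed by 0.16 (SE 0.14) and 0.04 (SE 0.10).

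Complex III, the cytochrome bc1 complex, had the highest median difference of the complexes, 0.20 over 7 subunits, all above 0. The median was lower under other processings, 0.083 with normexp, 0.056 within slide 2 and 0.12 without wild-type replicate 1, so the order of the complexes is a description of one processing. Uqcrc2, a core protein, was at 5.86, 6.05, 6.04 and 6.02 in wild-type mice and at 6.30, 6.14, 6.04 and 6.29 in Rap1 -/- mice. Only Rap1 -/- replicate 3 lay within the wild-type range, and the difference was 0.20 (SE 0.10, limma adjusted p = 0.789).

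Uqcrb, a small subunit next to the ubiquinone site, was at 6.64, 6.79, 6.89 and 6.78 in wild-type mice and at 7.10, 6.87, 6.84 and 7.11 in Rap1 -/- mice. Rap1 -/- replicates 1 and 4 stood above the rest, and the difference was 0.20 (SE 0.11, limma adjusted p = 0.792). The catalytic subunits Cyc1, cytochrome c1, and Uqcrfs1, the Rieske iron-sulfur protein, differed by 0.22 (SE 0.13) and 0.20 (SE 0.11). Uqcrq, Uqcrc1 and Uqcrh lay closer to 0, at 0.08, 0.06 and 0.02.

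Cycs, the mobile carrier between complexes III and IV, had the widest spread of all members. It was at 4.93, 5.41, 5.21 and 5.42 in wild-type mice and at 5.46, 5.77, 5.09 and 5.82 in Rap1 -/- mice. Rap1 -/- replicate 3 lay below 3 of the wild-type mice while the other 3 Rap1 -/- mice lay above all of them. The difference was 0.29 (SE 0.19, limma adjusted p = 0.829), with an interval from -0.13 to 0.72, and it was 0.19 without wild-type replicate 1, 0.45 within slide 1 and 0.14 within slide 2. A further probe of Cycs differed by 0.30. The last, a dim probe well above background on 1 wild-type and 3 Rap1 -/- arrays, differed by 0.37 (SE 0.33).

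Complex IV, cytochrome c oxidase, was represented by 9 nuclear subunits, which surround a catalytic core encoded in mitochondrial DNA. Their median difference was 0.17, and 8 of 9 were above 0. Cox7b was at 6.73, 6.96, 7.06 and 6.96 in wild-type mice and at 7.24, 7.07, 7.04 and 7.28 in Rap1 -/- mice. Rap1 -/- replicate 3 lay just below wild-type replicate 3, the only overlap, and the difference was 0.23 (SE 0.11, limma adjusted p = 0.783).

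Cox6c was at 7.05, 7.28, 7.27 and 7.17 in wild-type mice and at 7.44, 7.34, 7.25 and 7.43 in Rap1 -/- mice. Its groups again overlapped through Rap1 -/- replicate 3, and the difference was 0.17 (SE 0.10, limma adjusted p = 0.804). Cox7a2, Cox7c, Cox6b1 and Cox5a differed by 0.16 to 0.19, Cox6a1 by 0.11 and Cox5b by 0.05.

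Cox4i1, the ubiquitous form of subunit IV, was the only member below 0. It was at 8.03, 8.07, 8.17 and 8.07 in wild-type mice and at 8.09, 7.98, 8.10 and 8.09 in Rap1 -/- mice. The 2 groups lay on top of each other, with a difference of -0.02 (SE 0.08, limma adjusted p = 0.985) and an interval from -0.22 to 0.17. With arrays scaled by their median, the difference was 0.14.

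**Figure D2:**
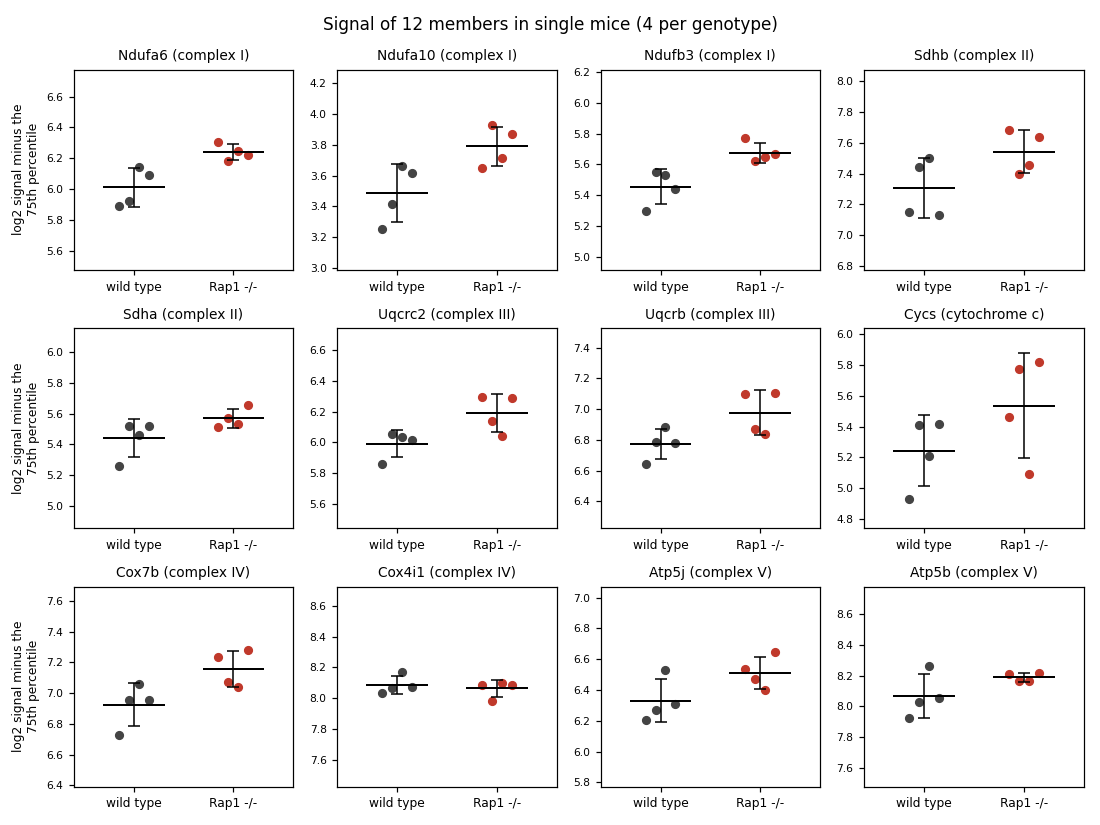
Level of 12 members in each mouse, as log2 signal minus the array's 75th percentile, with a horizontal line for the group mean and bars for the SD (n = 4 per genotype). Every panel spans the same number of log2 units, and only the panels of Ndufa6 and Ndufb3 show no overlap between wild-type (grey) and Rap1 -/- (red) mice.

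Complex V, the ATP synthase, had a median difference of 0.13 over 10 tested subunits, all above 0 and none at an unadjusted p under 0.05. It was 0.05 without wild-type replicate 1, 0.21 within slide 1 and 0.03 within slide 2. The 5 subunits of the F1 part, which makes ATP, had a median of 0.12, and the 5 of the stalk and membrane part had one of 0.13. Atp5b, the beta subunit with the catalytic sites, was at 7.92, 8.03, 8.26 and 8.05 in wild-type mice and at 8.21, 8.16, 8.16 and 8.21 in Rap1 -/- mice. The 4 Rap1 -/- mice lay close together, above 3 wild-type mice and below wild-type replicate 3, and the difference was 0.12 (SE 0.10, limma adjusted p = 0.857).

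Atp5a1, the alpha subunit, was at 6.79, 7.24, 7.11 and 6.94 in wild-type mice and at 7.21, 7.10, 6.998 and 7.14 in Rap1 -/- mice. All 4 Rap1 -/- mice lay within the wild-type range, and the difference was 0.09 (SE 0.12, limma adjusted p = 0.912). Atp5c1, the gamma subunit that turns inside F1, was at 6.70, 6.94, 6.93 and 6.83 in wild-type mice and at 7.06, 6.95, 6.89 and 7.11 in Rap1 -/- mice. Its groups overlapped through Rap1 -/- replicate 3, with a difference of 0.15 (SE 0.10, limma adjusted p = 0.832).

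Atp5j, subunit F6 of the peripheral stalk, was at 6.21, 6.27, 6.53 and 6.31 in wild-type mice and at 6.54, 6.47, 6.40 and 6.64 in Rap1 -/- mice. It had the largest difference of complex V, 0.18 (SE 0.11, limma adjusted p = 0.813), with groups that overlapped at wild-type replicate 3. The remaining subunits were Atp5e, Atp5l, Atp5f1 and Atp5o at 0.13 each, and Atp5h and Atp5d at 0.07 and 0.05.

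The ranges of the complexes overlapped. The medians of complexes I to V ran from 0.13 to 0.20, while the subunits within complex I alone ran from 0.00337 to 0.30, and no difference between complexes was tested. Of the members, 16 had further probes, 22 in all. Leaving out the dim one of Cycs, 19 of 21 lay above 0 with a median of 0.17. The 2 below 0 belonged to Ndufv3 (-0.04) and Cox7c (-0.06), whose brightest probes differed by 0.13 and 0.18. Probes of one gene share its RNA in the same mice and are no further replicates.

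The members' values shifted in one direction in some mice and were mixed in others. For each mouse, the deviation of every member from its mean over the 8 mice was taken. The median deviation over members was -0.23, -0.02, 0.03 and -0.05 in wild-type replicates 1 to 4 and 0.11, 0.02, -0.00312 and 0.14 in Rap1 -/- replicates 1 to 4. Wild-type replicate 1 stood below all other mice, and wild-type replicate 3 lay above Rap1 -/- replicates 2 and 3, so the groups overlapped. Wild-type replicate 1 was the lowest mouse for 45 of 58 members, and Rap1 -/- replicates 4 and 1 were the highest for 29 and 17. In Rap1 -/- replicate 2, by contrast, single members ran from -0.19 (Cox5b) to 0.38 (Cycs).

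The 2524 genes at least as bright as the dimmest member, which were not matched to the members in signal, shifted in the same mice. The median deviation of these 2524 genes was -0.14 in wild-type replicate 1 and 0.09 in Rap1 -/- replicate 4, and that of all genes in wild-type replicate 1 was -0.07. Without wild-type replicate 1 the median difference over members was 0.07, 49 of 58 members were above 0, and 51.8% of all genes were. Within slide 1, which held that mouse, the median was 0.21, and within slide 2 it was 0.08, with 53 of 58 members above 0 in each (57.4% and 52.8% of all genes).

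**Figure D3:**
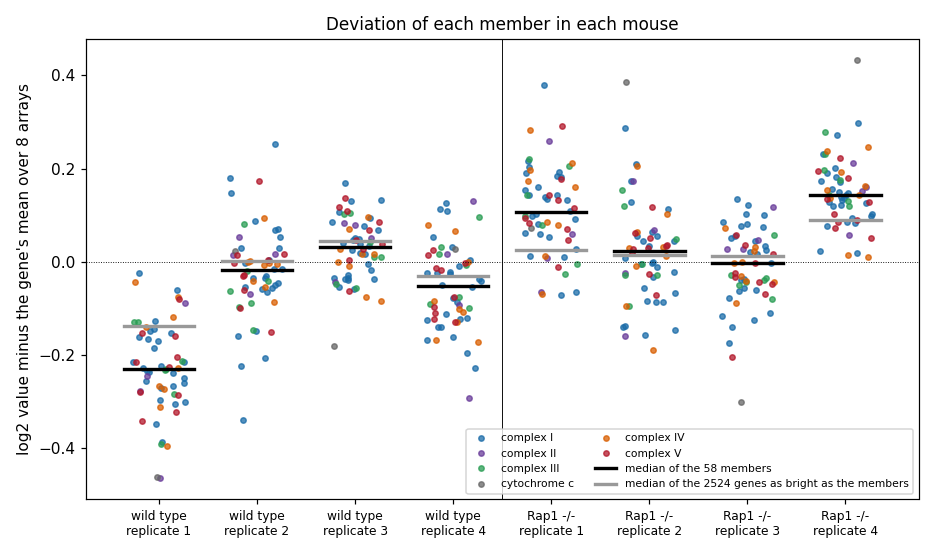
Deviation of each of the 58 members from its own mean over 8 mice (log2 units, points coloured by complex) in each mouse, with the median over members in black and over the 2524 genes of at least the dimmest member's signal in grey. The black line is lowest in wild-type replicate 1 (-0.23) and highest in Rap1 -/- replicate 4 (0.14). The median of every complex is negative in the former mouse and positive in the latter.

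Markers of the cell types in liver were read beside the members. All 10 hepatocyte markers were tested, and their median difference was -0.07 with 4 of 10 above 0, but it was 0.02, 0.04, 0.03 and 0.09 under quantile normalization, in the authors' table, under normexp and with the array median. The sum of their signals, in multiples of the 75th percentile, which was itself higher on Rap1 -/- arrays, was between 9538 and 10767 in wild-type mice and between 8777 and 9414 in Rap1 -/- mice. In wild-type replicate 1, where the members were lowest, the median deviation was 0.12 for hepatocyte markers and 1.17 for the 4 tested of 6 neutrophil markers. It was 0.23 there for T and B cell markers and -0.06 for Kupffer cell and macrophage markers. Endothelial and stellate cell markers were at -0.13, cholangiocyte markers at -0.36 and erythroid markers at -0.76. In wild-type replicate 2, neutrophil markers were at 0.56 and the members at -0.02. The neutrophil markers had a median difference of -0.75, which was -0.45 without wild-type replicate 1, -1.62 within slide 1 and 0.12 within slide 2. Their sums were 6.46 to 17.2 in wild-type and 6.20 to 9.83 in Rap1 -/- mice. Of 8 markers of Kupffer cells and macrophages, 7 were tested with a median of -0.13, and 0 lay above 0, where 4 did within slide 2 (median 0.0018) and 4 with the array median (0.03). The median was -0.21 under quantile normalization and without wild-type replicate 1, and -0.22 under normexp and in the authors' table, with 0 above 0 in each. Within slide 1 it was -0.33, with 1 above 0. The sums of these markers were 184 to 255 in wild-type and 144 to 242 in Rap1 -/- mice. The 5 cholangiocyte markers had a median of 0.46 (0.28 to 0.62 under other scalings, 0.49 within slide 1 and 0.51 within slide 2), with sums of 3.18 to 4.64 in wild-type and 3.99 to 8.01 in Rap1 -/- mice. The other lists had no steady direction. Endothelial markers had a median of 0.02 (-0.11 and 0.15 within slides 1 and 2), stellate cell markers 0.07 (-0.03 and 0.20), 5 of 7 T and B cell markers -0.16 (-0.30 and 0.06), and 3 of 6 erythroid markers 0.19 (-0.16 without wild-type replicate 1). Only 1 of 5 adipocyte and 1 of 5 muscle markers was well above background on enough arrays. The RNA integrity numbers in the labels, 6.5 to 8.5, are not tied to single mice. The part that cell types, array position or RNA quality had in the members' differences was not tested.

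Other mitochondrial gene lists were set beside the members. Of 20 further nuclear-encoded subunits, 19 were tested, all lay above 0 (56.1% of all genes) and the median difference was 0.10. The count above 0 was 15 under quantile normalization, under normexp, in the authors' table and without wild-type replicate 1 (51.8% to 54.5% of all genes). The medians there were 0.05 to 0.06. The smallest p values among the 19 were those of the complex I subunits Ndufc2, with 0.29 (SE 0.12), Ndufc1, with 0.28 (SE 0.12), and Ndufa11, with 0.23 (SE 0.12). None passed the test. Of 13 mitochondrially encoded subunits, none had a named probe.

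Assembly factors, which help to build the complexes and are no part of them, had larger single differences. Of 46 listed, 41 were tested, 35 lay above 0, and the median was 0.13. The count above 0 was 31 under quantile normalization and under normexp, 32 in the authors' table and 40 with the array median. It was 39 within slide 1 and 28 within slide 2. For 9 of the 41 (22.0%, against 3.01% of all genes and 5.43% of the 2524 bright genes) every Rap1 -/- mouse lay above every wild-type mouse. The bright genes were not matched to this list in signal, and Ndufaf7 and Acad9 were dimmer than all of them. None of the 41 passed the adjusted test. Cox20, which helps to mature a core subunit of complex IV, differed by 0.44 (SE 0.11), Ndufaf7, a methyltransferase acting on complex I, by 0.44 (SE 0.12), and Acad9, an acyl-CoA dehydrogenase that also assembles complex I, by 0.40 (SE 0.11), each with a limma adjusted p of 0.770.

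Of 72 mitochondrial ribosomal proteins, which translate the mitochondrially encoded subunits, 71 were tested and 64 lay above 0, with a median of 0.13. Their groups did not overlap for 10 (14.1%, against 3.01% of all genes and 5.43% of the 2524 bright genes), all higher in Rap1 -/- mice. The bright genes were not matched to this list in signal, and Mrpl35, Mrps5 and Mrps27 were dimmer than all of them. Fewer lay above 0 under other processings, 54 under quantile normalization, under normexp and in the authors' table, and 48 within slide 2, where the median was 0.04. Mrpl35 differed by 0.40 (SE 0.14), Mrps5 by 0.30 (SE 0.09) and Mrps27 by 0.26 (SE 0.10). Of 20 other genes of mitochondrial content, 17 lay above 0 (56.1% of all genes) with a median of 0.13. The count was 14 under quantile normalization and in the authors' table, 13 under normexp and 20 with the array median. It was 18 within slide 1 and 12 within slide 2 (52.8% of all genes). Among the 20 were the ADP/ATP carriers Slc25a4, at 0.30 (SE 0.12), and Slc25a5, at 0.29 (SE 0.11). The inner membrane organizer Immt was at 0.22 (SE 0.11). None of these passed. Without wild-type replicate 1 the medians were 0.11 for assembly factors, 0.08 for ribosomal proteins, 0.07 for content genes and 0.05 for the further subunits. Within slide 2 they were 0.07, 0.04, 0.05 and 0.07.

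The 13 regulators of mitochondrial biogenesis were spread around 0, with 6 above 0 and a median of -0.02 that turned under every other scaling (0.0031 to 0.14), within slides 1 and 2 (0.07 and 0.02) and without wild-type replicate 1 (0.04). Ppargc1a was at 1.45, 2.02, 1.80 and 1.29 in wild-type mice and at 1.502, 0.73, 1.84 and 2.17 in Rap1 -/- mice. The Rap1 -/- mice ran from below to above the wild-type range, with means of 1.64 ± 0.33 (SD, n = 4) and 1.56 ± 0.62 (SD, n = 4). Mean levels in wild-type and Rap1 -/- mice were 0.42 and 0.28 for Nrf1, 3.75 and 3.64 for Esrra, and 2.54 and 2.66 for Tfam, which packages mitochondrial DNA. Gabpa, the DNA-binding part of GABP, had the smallest p of the list, with 0.21 (SE 0.09, limma adjusted p = 0.780), and Tfb1m and Nfe2l2 followed at 0.20 and 0.19.

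Subunit isoforms restricted to other tissues such as muscle and testis had a median below 0. Of 9 listed, 5 were tested, 2 lay above 0 and the median was -0.17, with -0.10 and -0.03 within slides 1 and 2. It was -0.11 under quantile normalization, -0.07 under normexp and in the authors' table, and -0.014 with the array median. Without wild-type replicate 1 it was -0.23. Cox7a1, the form of heart and skeletal muscle, had a difference of -0.21 (SE 0.24), Cox6a2, also of muscle, one of -0.18 (SE 0.11), and Cox6b2, of testis, one of -0.17 (SE 0.13), none past the test.

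**Figure D4:**
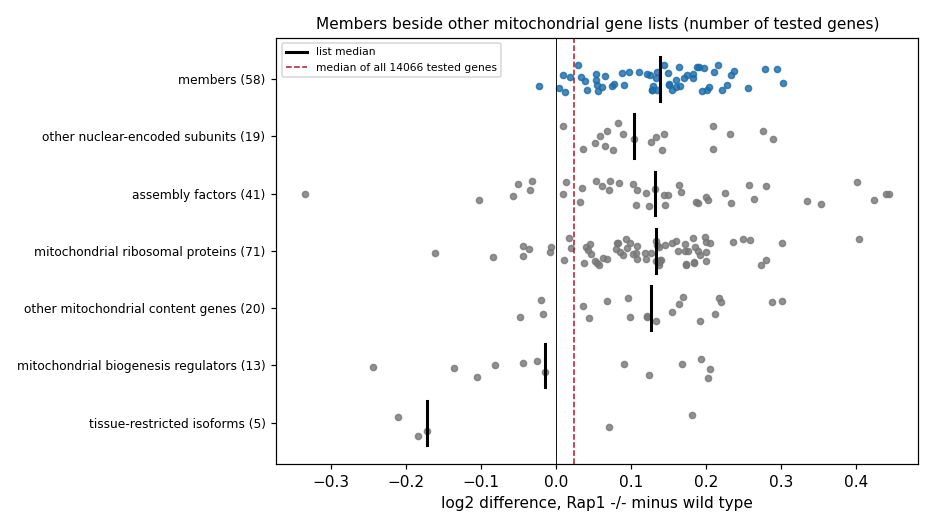
Log2 difference (Rap1 -/- minus wild type) of every tested gene of the member list and of 6 other mitochondrial lists, with the list median as a black bar and the median of all 14066 tested genes as a dashed line. The medians of the first 5 lists lie between 0.10 and 0.14, and that of the regulators is -0.02 (0.0031 to 0.14 under other scalings). That of the tissue-restricted isoforms is -0.17 (-0.11 to -0.014 under other scalings).

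The size of the shift moved with the way arrays were put on one scale. The median difference over members was 0.08 with normexp and quantile normalization, 0.09 with quantile normalization of the processed signal, 0.09 in the authors' table and 0.30 with the array median in place of the 75th percentile. The last of these moved the median of all genes from 0.02 to 0.18, and the members' median exceeded that of all genes by 0.11 under both scalings. That excess was 0.07 under each of the other 3. Across the 20 alternatives, no member passed the test, and the lowest adjusted p of any member was 0.654.

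**Figure D5:**
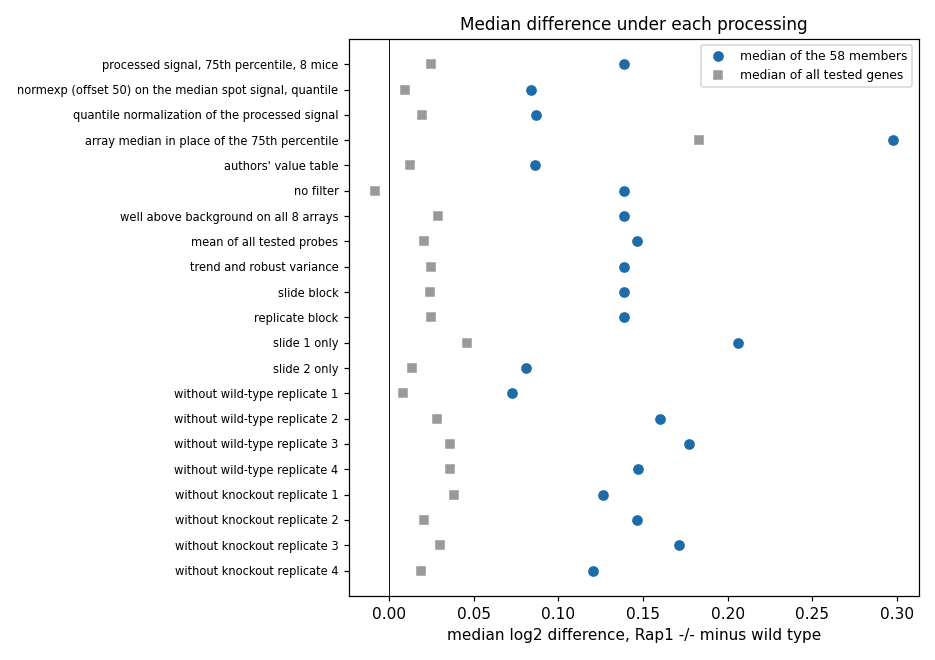
Median log2 difference (Rap1 -/- minus wild type) over the 58 members (blue circles) and over all tested genes (grey squares) under the processing used here, in the top line, and under 20 alternatives. The members' median stays above that of all genes in every line, from 0.07 without wild-type replicate 1 to 0.30 when arrays are scaled by their median.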

How the data were processed

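Liver RNA from 4 Rap1 -/- and 4 wild-type mice was read on 1-colour (Cy3) Agilent arrays, labelled as biological replicates. Per the file headers, the values are spot intensities extracted with Agilent Feature Extraction 10.7.3.1, and the authors' processed signal had its background subtracted by the scanner software, with no scaling between arrays. A log2 value table was deposited as well, and limma is named in the submitters' processing notes. Set against normexp (offset 50) with quantile normalization, that table had a median absolute difference of 0.00167, and 99.5% of values lay within 0.05, with column medians of 6.39 to 6.40.

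Control spots and outlier spots were left out and spots of a probe averaged. The 75th percentile of log2 processed signal was subtracted per array. Of 55681 probes, 26056 (46.8%) were named through RefSeq accessions of GRCm38.p6. The arrays were annotated on mm9, so no coordinate was carried over. The share of probes well above background ran from 50.03% to 65.3%, no spot was saturated, and precision is limited by the number of arrays. Probes well above background on at least 4 of 8 arrays were kept, and each gene was read by its brightest probe. Genotypes were compared with limma 3.58.1 (lmFit, eBayes) in R 4.3.3 without covariates, and adjusted p values are Benjamini-Hochberg over 14066 genes. The procedure was tested on simulated data in which each gene varied independently, so shifts shared by the genes of a mouse were not covered. Cross-hybridization with pseudogenes, which many subunit genes have, was not tested. For a dim probe, the fold was bounded with the dimmest signal that was still well above background on each array.

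The members, lists and tests were chosen with earlier results of these data known. Values in every mouse are given for the 3 complex I members and the 2 members of complexes II to V with the smallest p, for Cycs, Atp5a1, Atp5b and members at or below 0, and up to 3 genes of other lists are named by the smallest p. The alternatives were other normalizations, filters, probe choices and variance models, slide and replicate blocks, each slide alone and each mouse left out. Normexp was run on the median spot signal, in place of the mean, a choice made after the files were seen.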

Additional observations from a re-analysis of the deposited data

Results flagged for a closer look

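Each member was examined within each genotype for a mouse set far apart from the other 3, by Dixon's ratio of the gap to the range (above 0.829). Of 116 groups of 4 mice, 7 held such a mouse, and chance alone gives about 1 in 20 groups. Wild-type replicate 1 was the low mouse in 4 of them, at 6.51 for Ndufb4 (nearest wild-type mouse 6.73), 7.30 for Cox5a (7.70), 5.25 for Atp5f1 (5.57) and 6.88 for Atp5l (7.15). In Rap1 -/- mice, replicate 3 was low for Uqcrfs1, at 6.06 (nearest 6.28), replicate 4 was high for Uqcrh, at 7.65 (nearest 7.51), and replicate 2 was low for Cox4i1, at 7.98 (nearest 8.09).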

How the results depend on the processing

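No member passed the test under any of the 20 alternatives, and of 1160 values of single members 1097 kept their direction and 63 were reversed. For 42 members no alternative reversed the direction. Over all genes, 0 genes passed under normexp, in the authors' table, with the replicate block and within slide 1. There was 1 gene with quantile normalization, without a filter, with the filter on all 8 arrays, with the slide as a block, within slide 2 and without any 1 mouse. Replicate numbers are shared between genotypes. After each gene's genotype mean was subtracted, same-numbered mice correlated at 0.09, -0.18, -0.07 and 0.10 over genes. Differently numbered mice of the 2 genotypes correlated at -0.39 to 0.23. These values gave no sign of pairing but cannot exclude it, and the replicate block changed no member's call. Of 58 members, those whose genotypes did not overlap were 1 with quantile normalization (all genes, higher in Rap1 -/- mice: 2.4%), 7 with the array median (5.3%), 34 within slide 1, 33 of them higher (56.9% against 21.2%), 11 within slide 2 (19%, against 16.4%), and 2 to 17 with a mouse left out (5 and 10 without wild-type replicates 2 and 3, and 4, 7 and 17 without Rap1 -/- replicates 1, 2 and 3), where 4.03% to 5.62% of all genes were. Fewer mice make a lack of overlap more frequent. With the array median, the median difference was 0.30 over the members, and 0.30, 0.30, 0.36, 0.32 and 0.29 for complexes I to V. For complex III it was 0.083 under normexp, 0.083 in the authors' table and 0.056 within slide 2. The cause of these shifts was not tested.

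The reversed values were as follows. With normexp, Ndufa3 was at -0.048, Ndufa5 at -0.058, Ndufa8 at -0.037, Ndufb7 at -0.032, Ndufb10 at -0.025, Ndufs7 at -0.083, Sdhc at -0.035, Uqcrh at -0.023 and Atp5d at -0.011. With quantile normalization, Ndufa3 was at -0.046, Ndufa8 at -0.049, Ndufb7 at -0.069, Ndufb9 at -0.013, Ndufb10 at -0.013, Ndufs7 at -0.045, Sdhc at -0.036, Uqcrh at -0.034, Cox5b at -0.025 and Atp5d at -0.025. In the authors' table, Ndufa3 was at -0.041, Ndufa5 at -0.055, Ndufa8 at -0.037, Ndufb7 at -0.028, Ndufb10 at -0.018, Ndufs7 at -0.085, Sdhc at -0.039, Uqcrh at -0.017 and Atp5d at -0.011. Within slide 1, Ndufa3 was at -0.062, Ndufa8 at -0.053, Sdhc at -0.031 and Uqcrh at -0.0027. Within slide 2, Ndufa1 was at -0.014, Ndufb10 at -0.0068, Ndufs7 at -0.049 and Sdhd at -0.0025. With the array median, Cox4i1 was at 0.14. With each mouse left out in turn, Ndufa2 ran from -0.019 to 0.11, Ndufa3 from -0.043 to 0.060, Ndufa5 from -0.0030 to 0.15, Ndufa8 from -0.061 to 0.088, Ndufb7 from -0.044 to 0.067, Ndufb9 from -0.0056 to 0.092, Ndufb10 from -0.025 to 0.088, Ndufs6 from -0.0061 to 0.10, Ndufs7 from -0.023 to 0.076, Uqcrh from -0.021 to 0.056, Cox4i1 from -0.041 to 0.0056 and Cox5b from -0.0087 to 0.12.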
